A study of Mus musculus with 6 samples.

Results

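The genes described here handle iron and haem in the liver: enzymes that make and break down haem, haem and iron carriers, ferritins, and the signals that set hepcidin, the hormone that limits iron entry into blood. They were taken by symbol from a list of 36 symbols, of which 1, Hfe2, is an older name of Hjv and was absent. The other 35 were all found among the 55802 gene symbols of the files, and all 35 passed the filter on low counts, which kept 17662 genes. The samples were 6 liver libraries from male C57BL/6 mice reared for 71 weeks, 3 on chow containing PS-MP and 3 on normal chow (called control). PS-MP is polystyrene microplastic; neither particle size nor dose is stated. The labels name no genotype, allele or other agent. Nothing in them says that replicates are separate animals, and the p-values then cover only the spread among these libraries, which may be technical. The series asks how long exposure to PS-MP affects gene expression in the liver.

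Haem oxygenase opens the haem ring and releases iron and biliverdin, which biliverdin reductases turn into bilirubin. The first enzyme of haem synthesis, ALAS1 in the hepatocyte, sets the rate of the pathway and is held down by haem. Iron enters cells bound to transferrin, is stored in ferritin and leaves through ferroportin, which hepcidin removes from the cell surface. Hepcidin in turn is made by hepatocytes when BMP proteins from sinusoidal endothelium reach a receptor complex that includes hemojuvelin.

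Part of this system is set at the RNA level. The iron regulatory proteins, products of Aco1 and Ireb2, bind a short hairpin in messenger RNA when iron is scarce, which blocks translation from the 5′ untranslated region (UTR) of ferritin and ferroportin messages and protects the transferrin receptor message from its 3′ UTR. The hairpin was searched for as C, 5 bases, the loop CAGTGN and 5 more bases, with all 5 base pairs of the upper stem formed (G with T allowed), on the sense strand of UTRs in GENCODE M21 transcripts of build GRCm38. It was found in 160 of 21175 protein-coding genes (0.756%), and among the 35 genes in Fth1, Ftl1, Slc40a1 and Tfrc. The sites are shown because the iron regulatory proteins are known to bind these 4 messages. Slc11a2 is also known to have a message form with such an element in its 3′ UTR, but these letters had no match in its UTRs as searched. Capitals mark the 6-base loop. The 5′ UTR sites lie at chr19:9982733-9982759 on the plus strand (Fth1), chr7:45459780-45459806 on the minus strand (Ftl1) and chr1:45925466-45925492 on the minus strand (Slc40a1). The 4 sites in the 3′ UTR of Tfrc lie on the plus strand, and sites a and d below are at chr16:32631220-32631246 and chr16:32631711-32631737.
Fth1: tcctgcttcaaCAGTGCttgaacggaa
Ftl1: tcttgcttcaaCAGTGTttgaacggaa
Slc40a1: aacttcagctaCAGTGTtagctaagtt
Tfrc 3′ UTR, site a: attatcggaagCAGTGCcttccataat
Tfrc 3′ UTR, site b: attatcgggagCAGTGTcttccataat
Tfrc 3′ UTR, site c: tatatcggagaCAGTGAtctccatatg
Tfrc 3′ UTR, site d: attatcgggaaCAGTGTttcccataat
A match is a description of these letters and was not tested as a site.

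Libraries held 79081889 to 79691824 counts in PS-MP and 68357478 to 112566641 in control. Levels are given as CPM, counts per 1000000 after scaling by trimmed mean of M values (TMM). The TMM factors were 1.04 to 1.11 in PS-MP and 0.891 to 0.957 in control, and with no such factors (library size alone) the median log2 fold change of all genes was 0.21 higher. Reads of 18S ribosomal RNA (Rn18s-rs5) took 1.14%, 0.599% and 0.387% of counts in PS-MP, against 2.92%, 11.2% and 1.15% in control. The highest share and the lowest total count were both those of control replicate 2. Genes with at least 1 count numbered 24004 to 24763 in PS-MP and 23042 to 23791 in control. The 10 hepatocyte markers, Alb among them, were all detected, with a summed level of 71700 to 90450 CPM in PS-MP and 65970 to 83420 CPM in control.

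Hmox1, the inducible haem oxygenase, was the member that separated the diets most clearly. It had 20.0, 18.1 and 17.5 CPM in PS-MP, against 12.1, 10.8 and 12.3 CPM in control. All 3 PS-MP libraries were above all 3 control libraries, and the gap between the diets was wider than the range within either. The means were 18.5 ± 1.32 CPM in PS-MP and 11.7 ± 0.785 CPM in control (SD, n = 3 each), a 1.58-fold higher level (95% interval 1.26 to 1.98; log2 fold change 0.66, SE 0.14). It did not pass over all genes in edgeR (unadjusted p = 0.00224, adjusted p = 0.767), and the two-sided exact permutation p of its level was 0.1, the smallest that 3 against 3 libraries allow. DESeq2 did call it (log2 fold change 0.66, adjusted p = 0.0363), and limma-voom did not (adjusted p = 0.810). With each library left out in turn its log2 fold change stayed between 0.60 and 0.70. Hmox1 was named with earlier results of these data known.

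**Figure D1:**
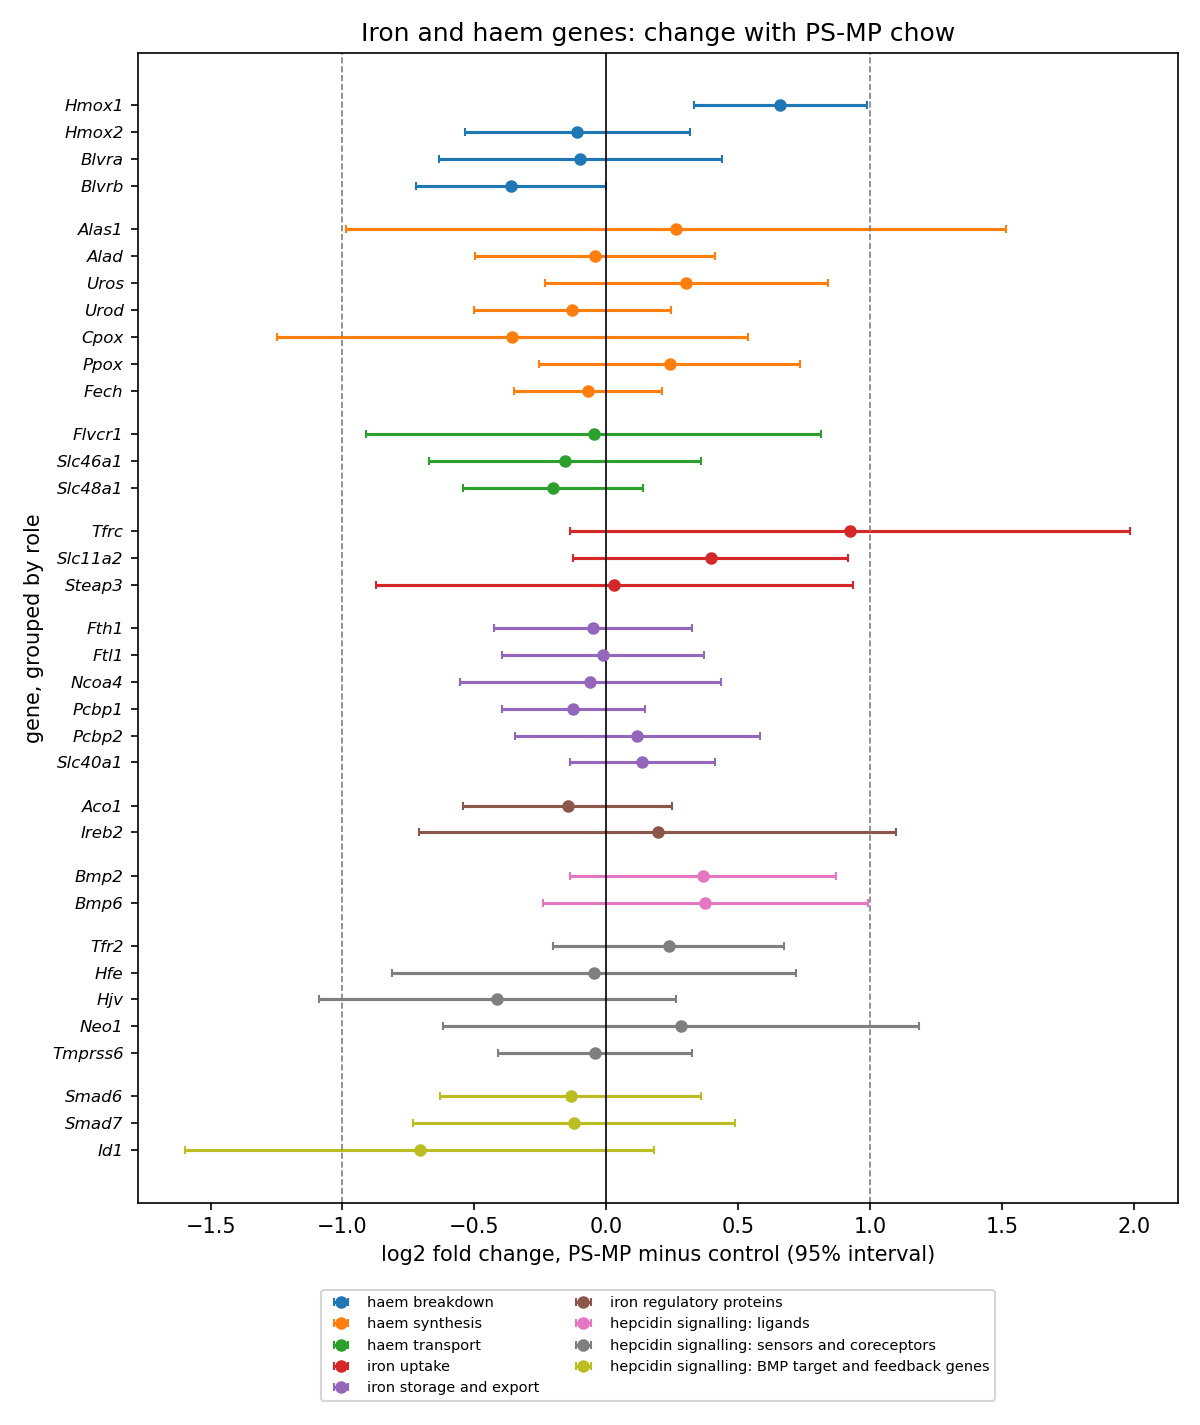
Log2 fold change of each of the 35 genes, PS-MP minus control, with its 95% interval (edgeR, n = 3 libraries each), grouped by role down the page; the dashed lines mark a 2-fold change either way. The interval of Hmox1 (0.33 to 0.99) lies above zero, that of Blvrb (-0.72 to -0.0008) ends just below it, and all others cross it.

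The other 34 genes lay on both sides of zero. Their log2 fold changes ran from -0.71 (Id1) to 0.93 (Tfrc), and apart from Tfrc the highest was 0.40 (Slc11a2). For 32 of the 34 the value was within 0.5 of zero. Over all 35 genes the median log2 fold change was -0.05 (0.02 over all genes tested), with 14 above zero (40%, and 52.8% of all genes) and 21 below (60%, and 47.2% of all genes). With edgeR, 0 of 35 passed at an adjusted p of 0.05, where 0.0113% of all genes did. At an unadjusted p of 0.05 there were 2 genes (5.71%, and 5.38% of all genes tested). Of these, 1 gene was higher in PS-MP (Hmox1; 2.8% of all genes tested) and 1 lower (Blvrb; 2.58% of all genes). DESeq2 called 1 of 35, Hmox1, where 0.834% of the 21354 genes that it gave an adjusted p passed, and limma-voom called 0. The diets did not overlap for 3 genes, Hmox1 and Tfrc higher and Blvrb lower, which is 8.57% of the 35 and 11.2% of all genes tested (higher, 6.24%; lower, 4.99%). These shares are near the background and are not results about the group.

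For most of these genes the libraries bounded the change. The 95% interval lay inside a 2-fold change for 28 of 35 (80%), against 53.6% of all genes tested. The 35 were also expressed at higher counts than most, with a median level of 44.7 CPM against 4.81 CPM over all genes tested, and their median SE was 0.21 against 0.29. The interval reached beyond 2-fold for 7 genes: Alas1, Cpox, Tfrc, Ireb2, Hjv, Neo1 and Id1.

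Hmox2, the constitutive haem oxygenase, had overlapping diets. It had 35.3, 31.7 and 33.8 CPM in PS-MP, against 44.3, 28.6 and 35.7 CPM in control (log2 fold change -0.11, interval -0.54 to 0.32). Its control libraries enclosed its PS-MP libraries. Within each library, where scaling plays no part, there were 56.6, 56.95 and 51.8 Hmox1 counts per 100 Hmox2 counts in PS-MP, against 27.2, 37.7 and 34.3 in control. Per kilobase of exon the mean level of Hmox1 was 10.6 CPM in PS-MP and 6.69 CPM in control, and that of Hmox2 was 15.2 CPM in PS-MP and 16.3 CPM in control. Hmox2 shares 40.2% of its exon bases with Cdip1 on the opposite strand in GENCODE M21, and since the strand setting of the counting is not given, its reads and those of Cdip1 cannot be told apart.

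The biliverdin reductases act after haem oxygenase, and both had values below zero, that of Blvra turning positive with library size alone. Blvrb, which reduces biliverdin and flavins, had 129, 155 and 164 CPM in PS-MP, against 199, 166 and 209 CPM in control. All PS-MP libraries were below all control libraries, by a narrow margin between PS-MP replicate 3 and control replicate 2. The means were 149 ± 18.4 CPM in PS-MP and 191 ± 22.4 CPM in control (SD, n = 3 each; log2 fold change -0.36, SE 0.15, edgeR unadjusted p = 0.0496, adjusted p = 0.923). The difference was not stable, with the unadjusted p above 0.05 under 10 of 13 alternatives run. It was 0.162 without PS-MP replicate 1 and 0.158 without control replicate 3. With library size alone it was 0.428, the log2 fold change was -0.15 and the diets overlapped. Blvra, the main reductase of the adult biliverdin isomer, had 5.89, 7.75 and 6.91 CPM in PS-MP, against 8.01, 5.53 and 8.45 CPM in control (log2 fold change -0.10). Per library there were 21.8, 20.0 and 23.7 Blvrb counts per Blvra count in PS-MP, against 24.8, 30.03 and 24.8 in control, so the ratio did not overlap between the diets. That ratio was given outside the rules of choice stated below.

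**Figure D2:**
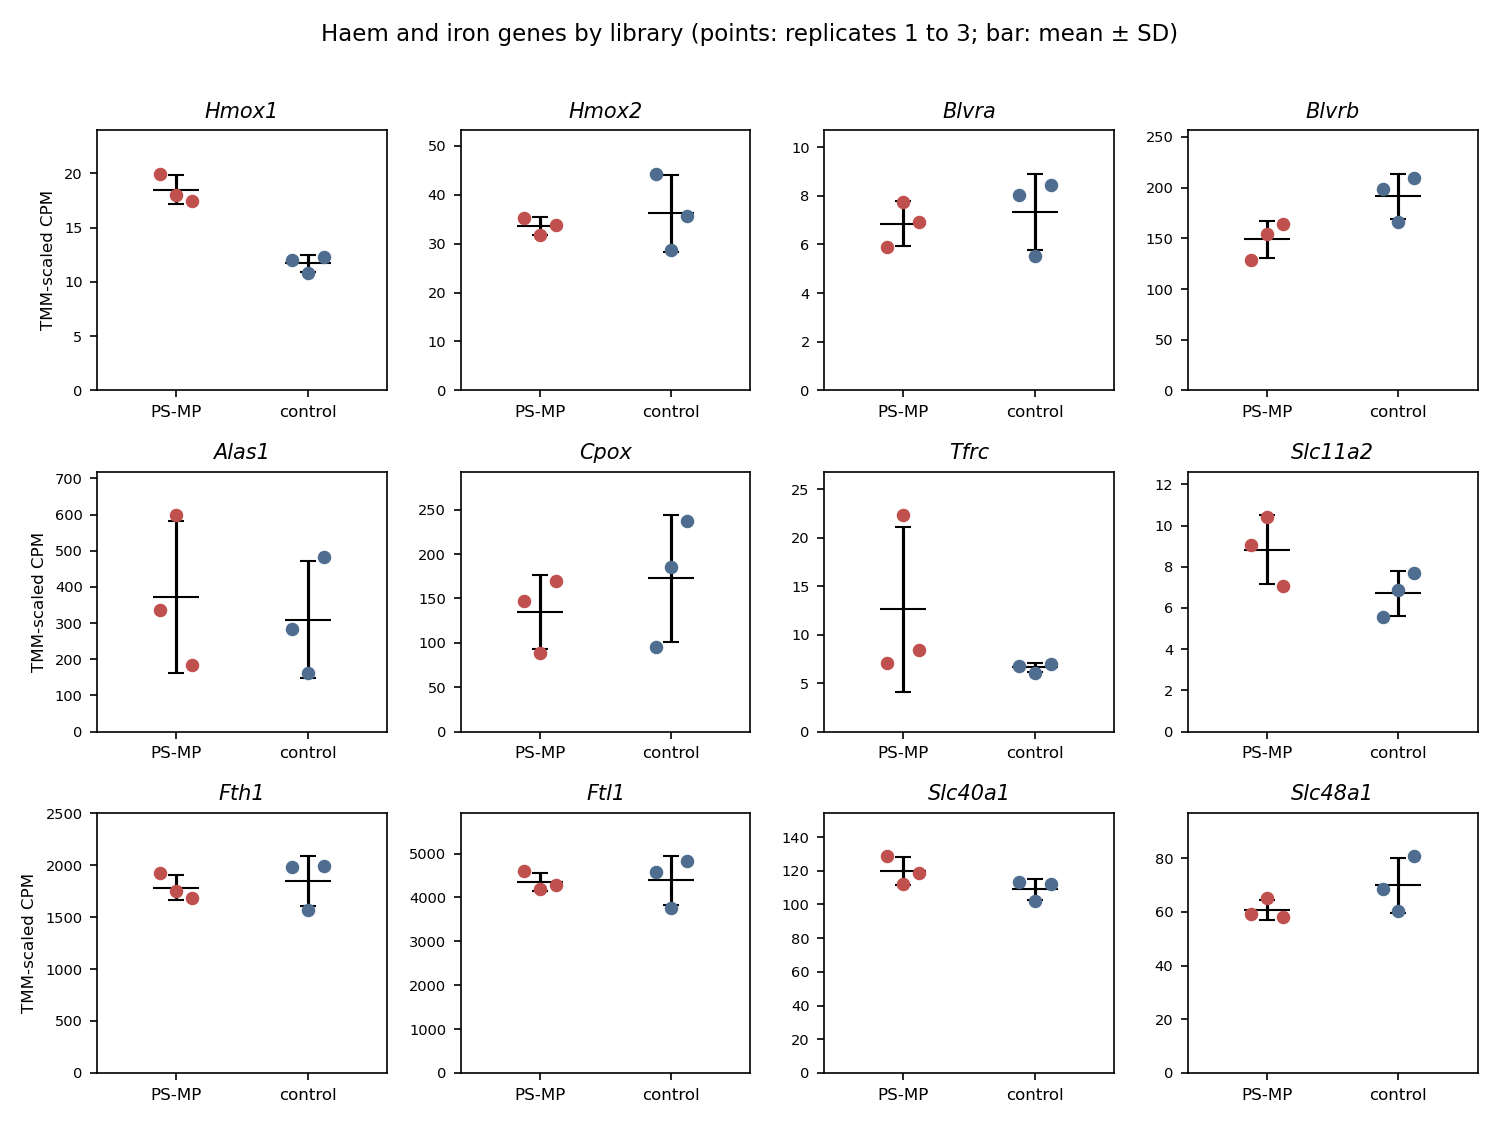
TMM-scaled CPM (vertical axes, from 0) of 12 haem and iron genes in PS-MP (left, red) and control (right, blue); each point is a library, in replicate order, and bars give mean ± SD (n = 3). Only Hmox1, Blvrb and Tfrc keep the diets apart, and Tfrc does so with 1 library at 22.3 CPM.

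Haem oxygenase 1 is abundant in macrophages that take up red cells. The summed levels of markers of liver macrophages and of red cells were, like Hmox1, higher in PS-MP, with no overlap between the diets. Among single genes tested, 6.24% were higher in PS-MP with no overlap. All 10 Kupffer cell markers had log2 fold changes above zero, where 52.8% of all genes tested did (median 0.43, against 0.02 over all genes). At an unadjusted p of 0.05 in edgeR, 3 of them were higher (Marco, C1qc and Adgre1), where 2.8% of all genes tested were. With edgeR 0 of these markers passed over all genes, and limma-voom called 0. DESeq2 called 1 (Marco), where 0.834% of the genes that it gave an adjusted p passed. Their summed level was 216, 199 and 190 CPM in PS-MP, against 156, 126 and 166 CPM in control, and none of the 10 was at 0 in all libraries. Hmox1 per 100 counts of these markers was 9.25, 9.07 and 9.19 in PS-MP, against 7.76, 8.56 and 7.40 in control. The ratio kept the diets apart, with the means at 9.17 in PS-MP and 7.91 in control, a smaller gap than that of Hmox1 itself. In bulk liver, more cells of a type and more RNA per cell cannot be told apart, and the part of these markers in the Hmox1 difference was not tested.

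**Figure D3:**
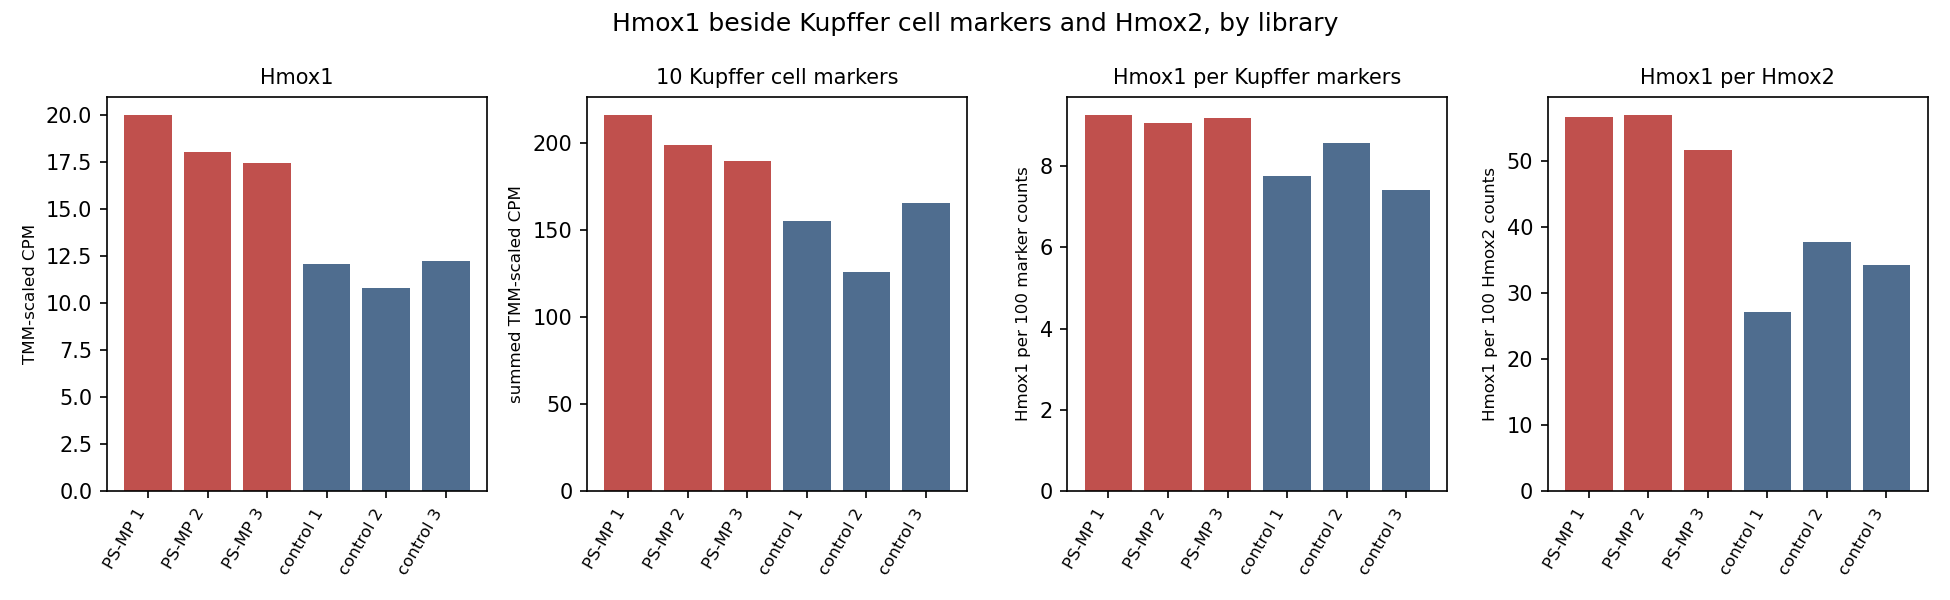
Hmox1 level (CPM), the summed level of 10 Kupffer cell markers (CPM), Hmox1 per 100 marker counts and Hmox1 per 100 Hmox2 counts, as bars for each PS-MP library (red, left) and control library (blue, right). In all 4 panels the PS-MP bars stand above the control bars, with the smallest gap for Hmox1 per marker counts (9.07 to 9.25 in PS-MP and 7.40 to 8.56 in control).

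Red cell markers had a summed level of 580, 572 and 849 CPM in PS-MP, against 492, 264 and 505 CPM in control. Among the 9 matched markers, Slc4a1 and Epb42, which encode red cell membrane proteins, averaged under 10 counts per library, and the sum is almost wholly globin and Alas2 reads. Of the 7 that could be tested, 6 had log2 fold changes above zero and 1 below (median 0.62), where 52.8% of all genes tested were above. At an unadjusted p of 0.05 in edgeR 2 were higher, where 2.8% of all genes tested were. These were the beta globin genes Hbb-bt and Hbb-bs, which as near-identical copies can share reads. EdgeR, DESeq2 and limma-voom called 0 of the red cell markers. The log2 fold change of Hbb-bs was 0.97 (SE 0.30, edgeR adjusted p = 0.814). Alas2, the erythroid counterpart of Alas1, had 62.5, 66.4 and 75.1 CPM in PS-MP, against 72.9, 66.5 and 74.6 CPM in control (log2 fold change -0.07). Neutrophil markers were low but also kept the diets apart, with a summed level of 1.77, 6.83 and 2.32 CPM in PS-MP, against 1.30, 1.43 and 0.917 CPM in control. Of the 9 neutrophil markers 5 could be tested, 4 above and 1 below zero. Of these 5, S100a9 and S100a8 were higher at an unadjusted p of 0.05 in edgeR, where 2.8% of all genes tested were. For the neutrophil markers edgeR and limma-voom called 0, and none of the 9 was at 0 in all libraries. DESeq2 called 1 of them (S100a9), where 0.834% of the genes that it gave an adjusted p passed. Ribosomal RNA, lower in PS-MP, and the number of detected genes, higher in PS-MP, also did not overlap between the diets, as given above. For ribosomal RNA the margin was narrow, between PS-MP replicate 1 (1.14%) and control replicate 3 (1.15%). The part of red cell and neutrophil RNA, ribosomal RNA and detected genes in the Hmox1 difference was not tested.

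Among the regulators of Hmox1, the repressor Bach1, which haem releases from DNA, had 26.5, 47.7 and 23.1 CPM in PS-MP, against 17.6, 25.2 and 23.2 CPM in control (log2 fold change 0.56, SE 0.30, adjusted p = 0.952). Its level in PS-MP replicate 2 stood above the other 5 libraries. Nfe2l2, the gene of the activator NRF2, stood at 0.15 on the same scale (adjusted p = 1), and its classical target Nqo1 had 11.4, 9.99 and 7.07 CPM in PS-MP, against 8.69, 6.98 and 15.0 CPM in control. Mafg, a small MAF protein that pairs with both BACH1 and NRF2, had 20.3, 23.7 and 24.1 CPM in PS-MP, against 13.7, 11.1 and 10.8 CPM in control. These libraries did not overlap (log2 fold change 0.94, SE 0.16, edgeR unadjusted p = 0.000707, adjusted p = 0.767; DESeq2 adjusted p = 0.00121). The malic enzyme gene Me1 had -1.28 and the glutathione reductase gene Gsr -0.40, both lower in all PS-MP libraries, though for both the diets overlapped with library size alone. Of the 15 measured genes on the list of BACH1 and NRF2 regulators and targets, 0 passed with edgeR, with 1 higher and 2 lower at an unadjusted p of 0.05. Of all genes tested, 2.8% were higher and 2.58% lower at that p. DESeq2 called 1 (Mafg), where 0.834% of the genes that it gave an adjusted p passed, and limma-voom called 0.

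Haem synthesis showed no member past the test and no member whose diets kept apart. Of its 7 genes, 3 had log2 fold changes above zero and 4 below (range -0.36 to 0.30), with 0 at an unadjusted p of 0.05, and DESeq2 and limma-voom called 0. Alas1 varied most, with 335, 599 and 183 CPM in PS-MP, against 285, 163 and 482 CPM in control. The highest library of each diet was about 3-fold its lowest (3.27-fold in PS-MP and 2.95-fold in control), a wider span than the difference between the diets (log2 fold change 0.27, interval -0.98 to 1.52). Its sign depended on single libraries, with -0.26 without PS-MP replicate 2 and 0.74 without control replicate 3. Alas1 counts per Hmox1 count were 16.8, 33.2 and 10.5 in PS-MP, against 23.6, 15.1 and 39.3 in control, so the diets overlapped.

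Downstream of ALAS1, the span within a diet was largest for Cpox (1.90-fold in PS-MP and 2.47-fold in control). Alad, which joins a pair of aminolevulinate molecules, had -0.04 (interval -0.50 to 0.41). Uros and Urod, which close and trim the uroporphyrinogen ring, had 0.30 (interval -0.23 to 0.84) and -0.13 (interval -0.50 to 0.25). Cpox, coproporphyrinogen oxidase, had 147, 89.1 and 169 CPM in PS-MP, against 95.7, 186 and 237 CPM in control, with wide overlap (log2 fold change -0.36, interval -1.25 to 0.54). Ppox, which oxidises protoporphyrinogen, had 0.24 (interval -0.26 to 0.74). Fech, which inserts iron into protoporphyrin, had 155, 167 and 145 CPM in PS-MP, against 152, 168 and 170 CPM in control, and the narrowest interval of the 7 (-0.35 to 0.21).

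The 3 haem carriers had log2 fold changes from -0.20 to -0.05, each of which turned positive with library size alone. Flvcr1, a haem exporter also known as a choline transporter, was low, with 93 to 165 counts per library in PS-MP and 68 to 198 in control, and had -0.05 (interval -0.91 to 0.82). Slc46a1, a folate transporter that also moves haem, had -0.16 (interval -0.67 to 0.36). Slc48a1, the transporter that brings haem out of the lysosome, had 59.1, 65.1 and 58.2 CPM in PS-MP, against 68.5, 60.4 and 80.8 CPM in control (-0.20, interval -0.54 to 0.14).

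Iron uptake held the largest log2 fold change of the 35 genes, and 1 library set its size. Tfrc, transferrin receptor 1, had 7.03, 22.3 and 8.43 CPM in PS-MP, against 6.78, 6.09 and 7.02 CPM in control. The diets did not overlap, but PS-MP replicate 1, at 7.029 CPM, barely exceeded control replicate 3, at 7.023 CPM, and PS-MP replicate 2 was far above the rest. The log2 fold change was 0.93 (SE 0.44, edgeR unadjusted p = 0.0776, adjusted p = 0.923), and 0.22 without PS-MP replicate 2. Slc11a2, the ferrous iron transporter DMT1, had 9.03, 10.4 and 7.07 CPM in PS-MP, against 5.56, 6.87 and 7.70 CPM in control (0.40, interval -0.12 to 0.92). Steap3, an endosomal ferrireductase, had 0.03 (interval -0.87 to 0.94).

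The ferritin subunits, whose messages carry the hairpin in their 5′ UTR, had overlapping levels, with intervals inside 2-fold. Fth1, the heavy chain with ferroxidase activity, had 1920, 1750 and 1680 CPM in PS-MP, against 1978, 1568 and 1992 CPM in control (log2 fold change -0.05, interval -0.43 to 0.33). Ftl1, the light chain, had 4594, 4192 and 4278 CPM in PS-MP, against 4571, 3766 and 4828 CPM in control (-0.01, interval -0.39 to 0.37). Ftl1 counts per Fth1 count were 2.39, 2.40 and 2.55 in PS-MP, against 2.31, 2.40 and 2.42 in control. Ferritins have processed copies, and the copy Ftl1-ps1 held a further 181, 155 and 153 CPM in PS-MP, against 195, 127 and 161 CPM in control, while Ftl2-ps held 58.9, 48.6 and 52.9 CPM in PS-MP, against 64.1, 37.9 and 66.4 CPM in control. The Ftl1 level is uncertain to the extent of the reads in these copies.

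Iron-poor cells are known to hold more Tfrc message and to translate less ferritin. The Tfrc to Fth1 ratio within a library is given as a description. It was 3.66, 12.8 and 5.02 Tfrc counts per 1000 Fth1 counts in PS-MP, against 3.43, 3.89 and 3.53 in control. PS-MP replicate 1 lay within the control range and PS-MP replicate 2 far above it. Translation of ferritin and ferroportin, on which the 5′ hairpin acts, was not measured.

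Slc40a1, ferroportin and the only known iron exporter, had 129, 112 and 119 CPM in PS-MP, against 113, 102 and 112 CPM in control. The diets overlapped, and the interval of its log2 fold change of 0.14 ran from -0.14 to 0.41. Ncoa4, the receptor that delivers ferritin to the lysosome, had -0.06 (interval -0.56 to 0.44). The iron chaperones Pcbp1 and Pcbp2 had -0.12 (interval -0.40 to 0.15) and 0.12 (interval -0.35 to 0.58). Of the iron regulatory proteins, Aco1 had -0.15 (interval -0.54 to 0.25). Ireb2 had 58.9, 91.3 and 50.7 CPM in PS-MP, against 30.9, 78.0 and 66.6 CPM in control (0.20, interval -0.71 to 1.10).

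Upstream of hepcidin, both BMP ligands had positive values that did not pass. Bmp2 had 9.45, 9.88 and 10.7 CPM in PS-MP, against 7.07, 9.90 and 6.31 CPM in control (log2 fold change 0.37, SE 0.21, adjusted p = 0.955). Bmp6, which rises with liver iron, had 4.41, 3.67 and 5.07 CPM in PS-MP, against 3.32, 4.27 and 2.55 CPM in control (0.38, SE 0.26, adjusted p = 0.984). In both genes control replicate 2 lay among the PS-MP libraries. Without that library the log2 fold change of each was 0.58. Without control replicate 3 it was 0.24 for Bmp2 and 0.21 for Bmp6. Sinusoidal endothelial markers, from the cells that make these ligands, had log2 fold changes above zero for 9 of 10 genes (52.8% of all genes tested). Their median was 0.31, and none was at 0 in all libraries. Their summed level was 172, 154 and 219 CPM in PS-MP, against 167, 155 and 134 CPM in control. Their part in the BMP values was not tested.

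The hepatocyte proteins that sense iron and relay BMP were spread around zero. Tfr2, transferrin receptor 2 and a sensor of loaded transferrin, had 344, 228 and 289 CPM in PS-MP, against 269, 217 and 245 CPM in control (0.24, interval -0.20 to 0.67). Hfe, its partner, had 29.8 to 31.8 CPM in PS-MP and 16.65 to 41.3 CPM in control, with control replicate 2 at the bottom (-0.05, interval -0.81 to 0.72). Hjv, the BMP coreceptor hemojuvelin, had 48.4, 28.0 and 38.6 CPM in PS-MP, against 69.6, 41.9 and 41.7 CPM in control. Its log2 fold change of -0.41 (interval -1.09 to 0.26) was -0.12 without control replicate 1. Neo1, neogenin, which binds hemojuvelin, had 0.28 (interval -0.62 to 1.19). Tmprss6, the protease that restrains hepcidin, had 432, 376 and 459 CPM in PS-MP, against 488, 374 and 445 CPM in control (-0.04, interval -0.41 to 0.32).

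**Figure D4:**
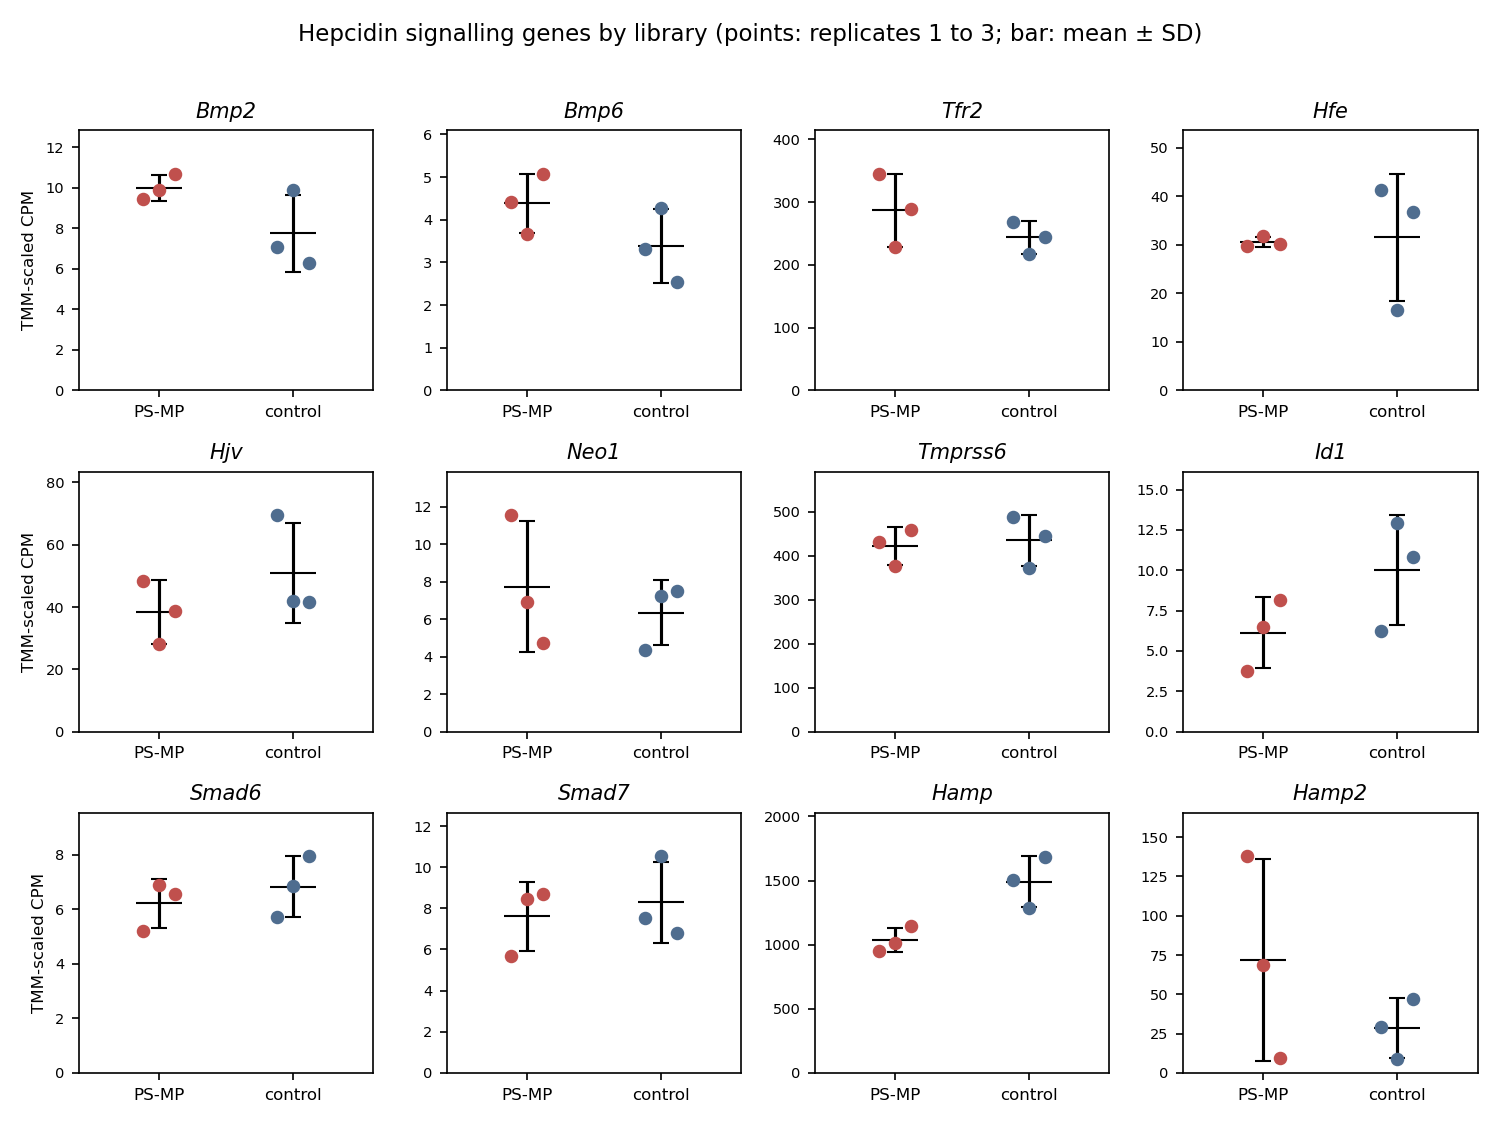
TMM-scaled CPM (vertical axes, from 0) of 10 hepcidin signalling genes and the hepcidin genes Hamp and Hamp2 in PS-MP (left, red) and control (right, blue); each point is a library, in replicate order, and bars give mean ± SD (n = 3). On this scaling Hamp keeps the diets apart (953 to 1142 CPM in PS-MP and 1288 to 1685 CPM in control), and the diets overlap in the other 11 panels.

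The 3 members that BMP signalling induces, which are not all of its targets, had values below zero, without passing. Id1, a BMP target, had 3.79, 6.47 and 8.13 CPM in PS-MP, against 6.24, 12.9 and 10.9 CPM in control. The diets overlapped because control replicate 1 was low (log2 fold change -0.71, SE 0.37, edgeR unadjusted p = 0.101, adjusted p = 0.942). Leaving out PS-MP replicate 3 gave -0.98 and leaving out PS-MP replicate 1 gave -0.45, and without control replicate 1 its unadjusted p was 0.0334. The inhibitory SMAD gene Smad6 had 5.21 to 6.90 CPM in PS-MP and 5.71 to 7.95 CPM in control (-0.14). Smad7, the other inhibitory SMAD gene, had 5.69, 8.45 and 8.71 CPM in PS-MP, against 7.52, 10.5 and 6.82 CPM in control (-0.12). The signs of both turned with library size alone.

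Hepcidin itself, the output of this arm and no member, was lower in all 3 PS-MP libraries on TMM-scaled levels. Hamp had 953, 1011 and 1142 CPM in PS-MP, against 1503, 1288 and 1685 CPM in control, which gave -0.53 on the log2 scale (SE 0.16, edgeR unadjusted p = 0.0141, adjusted p = 0.805). With library size alone the diets overlapped, at 993, 1126 and 1227 counts per 1000000 in PS-MP, against 1438, 1147 and 1583 in control (log2 fold change -0.32, unadjusted p = 0.128). The unadjusted p of Hamp was also above 0.05 without PS-MP replicate 1 (0.0517) and without control replicate 3 (0.0577). Its near-identical neighbour Hamp2 had 138, 68.4 and 9.26 CPM in PS-MP, against 29.4, 8.85 and 46.9 CPM in control, with no order by diet. The copies can share reads, so single values are uncertain. Of 10 genes on the list of hepcidin and the serum carriers of iron and haem, 0 passed with edgeR, and DESeq2 and limma-voom called 0. At an unadjusted p of 0.05 in edgeR, 1 was higher (Slc22a17) and 1 lower (Hamp), where 2.8% and 2.58% of all genes tested were. Trf, transferrin, had 0.17, Hp, haptoglobin, 0.26 and Hpx, hemopexin, 0.22, each with overlapping diets. Cp, the plasma ferroxidase ceruloplasmin, had 625, 622 and 682 CPM in PS-MP, against 719, 694 and 747 CPM in control (-0.16, adjusted p = 0.990; above zero with library size alone). Cd163, the macrophage receptor for haptoglobin-bound haemoglobin, also counted among the Kupffer cell markers, had 3.24, 5.45 and 6.40 CPM in PS-MP, against 4.14, 1.22 and 3.27 CPM in control (0.80, adjusted p = 0.964).

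Of the other genes that receive or relay BMP, 15 were measured, 5 above and 10 below zero (52.8% and 47.2% of all genes tested). With edgeR 0 passed, and DESeq2 and limma-voom called 0. At an unadjusted p of 0.05 in edgeR, 0 were higher and 1 lower, where 2.8% and 2.58% of all genes tested were. The lower gene was Smad9, a BMP-activated SMAD, with 3.64, 3.42 and 6.58 CPM in PS-MP, against 10.2, 6.50 and 9.22 CPM in control (-0.93, SE 0.32, adjusted p = 0.869), and its unadjusted p was above 0.05 under 5 of 13 alternatives. Among other iron transporters, Slc39a14, which takes up iron not bound to transferrin, had 1.92, 2.36 and 1.66 CPM in PS-MP, against 21.6, 12.6 and 2.08 CPM in control. Control replicate 3 was at the PS-MP level, so the diets overlapped (-2.61, SE 0.76, edgeR adjusted p = 0.805; DESeq2 adjusted p = 0.0136). The log2 fold change of Slc39a14 was -1.88 without control replicate 1 and -3.11 without control replicate 3, and limma-voom gave -1.96 (unadjusted p = 0.0869, adjusted p = 0.814).

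Over the 9 lists of related genes, 111 distinct genes were tested beside the 35. With edgeR 0 of the 111 passed, with 3 higher and 6 lower at an unadjusted p of 0.05, where all genes gave 2.8% and 2.58%. DESeq2 called 2 (Mafg and Slc39a14), where 0.834% of the genes that it gave an adjusted p passed, and limma-voom called 0.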

How the data were processed

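The authors deposited read counts per gene, raw whole numbers by their values, from poly(A)-selected, directional libraries of liver RNA, per the labels' protocols. The submitters' processing notes name bcl2fastq and build GRCm39. No aligner, counting program, annotation or strand setting is named there. Rows that shared a symbol (67 symbols) were added up. The 6 single-library files were used.

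Genes were filtered by filterByExpr, scaled by TMM and compared between diets by edgeR 4.0.16 (quasi-likelihood F test, R 4.3.3) in a model of diet alone, with Benjamini-Hochberg adjustment over the 17662 genes. A positive log2 fold change means higher in PS-MP, and 95% intervals use the moderated degrees of freedom (median 6.63). Alternatives included DESeq2 1.42.0 and limma-voom (limma 3.58.1). On simulated counts of PS-MP against control with 17281 genes, edgeR called 38 of 100 genes given a 4-fold change, 0 of 100 given a 2-fold change and 7 that had none. The changed genes were drawn at random from all genes tested, not from the 35 alone. Of the intervals there, 95.4% held the true value.

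The members, the lists of related genes and markers, and the tests were chosen with earlier results of these data known. Values per library are given for members with an unadjusted p under 0.05 or with diets that do not overlap, for 13 members fixed whatever their values, and for further members chosen after their values were seen. Of genes outside the members, 13 were fixed, not all of which are reported here, and the others were list genes with an unadjusted p under 0.05. The ferritin copies Ftl1-ps1 and Ftl2-ps were given outside these rules. Of the within-library ratios, Hmox1 to Hmox2, Tfrc to Fth1 and Alas1 to Hmox1 were fixed, and the others were also given outside these rules. Hbb-bs was chosen with its values in view.

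Exon lengths, overlaps and UTRs come from GENCODE M21 (GRCm38), an earlier build, in which all 35 symbols matched. There 11 of the 35 genes share exon bases with another gene and 24, with Hmox1, Blvrb and Tfrc among them, share none.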

Additional observations from a re-analysis of the deposited data

How the results depend on the processing

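Of the 35 genes, 0 were called under each setting run except DESeq2, which called 1, Hmox1 (log2 fold change 0.66). Over all genes, edgeR called 2, DESeq2 178, limma-voom 1 and the fit with the replicate number as a block 0, and 0 to 4 were called with a library left out. That range runs from 0 without control replicate 3 to 4 without control replicate 2, with 1 without PS-MP replicate 1 or 3. The cause was not tested. Hmox1 kept its sign in every setting run, with 0.87 under library size alone and 0.60 to 0.70 with a library left out. Its adjusted p there lay between 0.461 and 1.

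Library size alone turned 17 members from below to above zero, with values from 0.0094 to 0.20, all under the shift of 0.21 that this scaling gives the median of all genes: Hmox2 0.094, Blvra 0.11, Alad 0.16, Urod 0.077, Fech 0.15, Flvcr1 0.18, Slc46a1 0.043, Slc48a1 0.0094, Fth1 0.16, Ftl1 0.20, Ncoa4 0.16, Pcbp1 0.086, Aco1 0.058, Hfe 0.15, Tmprss6 0.16, Smad6 0.083 and Smad7 0.10. It also turned Nqo1 (0.10), Cp (0.048) and Alas2 (0.14). At an unadjusted p of 0.05 in edgeR, library size alone gave 6 members higher and 0 lower: Bmp2, Bmp6, Hmox1, Slc11a2, Slc40a1 and Tfrc. Over all 17662 genes it gave 1461 higher and 224 lower. Ftl1 was at 0.0063 with the 1 CPM filter, and Hfe at 0.041 with limma-voom and 0.051 with the block.

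Leaving out a library turned the sign of 16 members at least once. Their ranges were -0.23 to 0.064 for Alad, -0.26 to 0.74 for Alas1, -0.27 to 0.017 for Blvra, -0.31 to 0.13 for Flvcr1, -0.16 to 0.010 for Fth1, -0.11 to 0.065 for Ftl1, -0.35 to 0.20 for Hfe, -0.26 to 0.062 for Hmox2, -0.11 to 0.46 for Ireb2, -0.18 to 0.12 for Ncoa4, -0.13 to 0.52 for Neo1, -0.081 to 0.23 for Pcbp2, -0.34 to 0.0022 for Slc46a1, -0.24 to 0.086 for Smad7, -0.25 to 0.41 for Steap3 and -0.15 to 0.046 for Tmprss6. Outside the members, Nqo1 ran from -0.32 to 0.28. Without control replicate 2, 2 members were higher and 3 lower at an unadjusted p of 0.05 in edgeR: Aco1, Blvrb, Bmp2, Hfe and Hmox1. Over all 18315 genes tested there, 975 were higher and 697 lower.

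Libraries with the same replicate number did not pair. Their deviations from the diet means correlated at 0.11, 0.14 and -0.13 across genes. With the replicate block Hmox1 had a log2 fold change of 0.66 (adjusted p = 0.868). Besides Hmox1, the members Hjv and Id1, both lower, were under an unadjusted p of 0.05 in that edgeR fit. Over all 17662 genes, 478 were higher and 467 lower at that p. In simulation at this depth and spread, 0 of 100 genes changed 2-fold were called. Those genes were drawn at random from all genes tested. The members had a higher median level and a smaller median SE, so the rate for them was not measured.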

Other observations

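Iron-sulfur cluster assembly is the other large user of cellular iron. Of its 20 genes tested, 10 were above and 10 below zero (median log2 fold change -0.02, against 0.02 over all genes), with a range from -1.51 to 0.27. The diets did not overlap for 4 of them, 1 higher and 3 lower, where 11.2% of all genes did not overlap. With edgeR 0 passed, and DESeq2 and limma-voom called 0. At an unadjusted p of 0.05 in edgeR, 0 were higher and 1 lower, where 2.8% and 2.58% of all genes tested were. The lower gene was Fdxr, ferredoxin reductase, with 3.70, 2.12 and 1.97 CPM in PS-MP, against 8.94, 10.02 and 3.22 CPM in control (-1.51, SE 0.48, adjusted p = 0.816). PS-MP replicate 1 overlapped control replicate 3.

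Among 10 genes of hypoxia and iron sensing, 2 were above and 8 below zero (52.8% and 47.2% of all genes tested). With edgeR, DESeq2 or limma-voom 0 passed. Vegfa, an angiogenic factor and hypoxia target, was the one at an unadjusted p of 0.05 in edgeR, where 2.8% of all genes tested were higher. It had 61.0, 75.2 and 68.3 CPM in PS-MP, against 38.0, 55.4 and 35.1 CPM in control. Those libraries did not overlap (log2 fold change 0.67, SE 0.20, adjusted p = 0.805), where 6.24% of all genes tested were higher with no overlap. Slc22a17, a receptor for the iron-binding protein lipocalin 2, was low, at 0.571, 0.838 and 0.817 CPM in PS-MP, against 0.386, 0.378 and 0.236 CPM in control (1.16, SE 0.34, adjusted p = 0.805).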
